A study of Homo sapiens with 5 samples.

Results

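The genes described here encode the core of the nuclear m6A methyltransferase, proteins described as m6A readers, and the mRNA decapping enzyme with its cofactor. They were chosen by name: METTL3, METTL14, YTHDF2, HNRNPA2B1, DCP1A and DCP2, with WTAP, YTHDF1, YTHDF3 and YTHDC1 added where present. Of these 10 genes, 9 were among the 6309 genes of the authors' deposited table, and YTHDC1, a nuclear m6A reader, was not analysed here. The rule itself uses gene names and no measured value, though it was written with earlier results of these data known.

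The study used wild-type HL-60 cells, a human cell line established from a promyelocytic leukaemia, and the labels name no targeting of any of these genes. Cells received decitabine, a deoxycytidine analogue that traps DNA methyltransferases, dosed at 100 nM on 3 occasions (0, 24 and 48 hours), or the solvent DMSO, and all lysates were made at 72 hours. Total RNA was sequenced in 2 libraries per treatment, and the ribosome-protected fragments of both treatments, told apart by linker barcodes, form 1 pooled library. Translation efficiency, the ribosome-protected mRNA of a gene relative to its total mRNA, was compared between decitabine and DMSO, and 1 coefficient per gene was available. Of 10 myeloid marker genes of HL-60, 10 were among the genes measured, against 0 of 9 erythroid and megakaryocyte markers and 1 of 8 lymphoid markers. Neither levels nor values per library were analysed here, so the depth of the libraries is unknown and no fold within a replicate could be given.

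N6-methyladenosine (m6A) is the most common internal modification of mRNA. METTL3 carries the methyltransferase activity, METTL14 is its RNA-binding partner, and WTAP holds the pair in nuclear speckles. YTH-domain proteins bind the modified base; YTHDF2 is best known for bringing its targets to deadenylation and decay. Decapping by DCP2, stimulated by DCP1A, removes the cap and exposes the mRNA to the exonuclease XRN1.

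The coefficient was read as a natural log, with positive values meaning higher translation efficiency with decitabine; the log base is not stated in the sources used here. Its error is an implied standard error (SE), the coefficient divided by the z of its two-sided p-value, and intervals are 95% intervals from that SE. A gene was called at an adjusted p below 0.05 over all 6309 genes. The wells were duplicates and no label says that they came from separate cultures, so the spread that the p-values measure may be technical.

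Of the 9 genes, HNRNPA2B1 alone changed past the threshold, and it rose. This is 1 of 9, against 0.808% of all genes called in either direction and 0.634% called higher. Coefficients of the 9 ran from -0.02 for WTAP to 0.56 for YTHDF1 in the authors' deposited table, with a median of 0.17 where the median of all genes was 0.09. Coefficients above 0 were found for 8 of the 9, against 65% of all genes, and the same 8 lay above the median of all genes. At an unadjusted p below 0.05 there were 3 of 9, all higher (HNRNPA2B1, YTHDF1 and DCP2), against 10.3% of all genes in either direction and 8.35% in that direction. Because the median of all genes lay above 0, each value was also centred on that median, and at an unadjusted p below 0.05 HNRNPA2B1 was then the 1 member left, against 7.94% of all genes on either side and 3.69% on the higher side. No member was called after centring, against 0.586% of all genes.

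**Figure D1:**
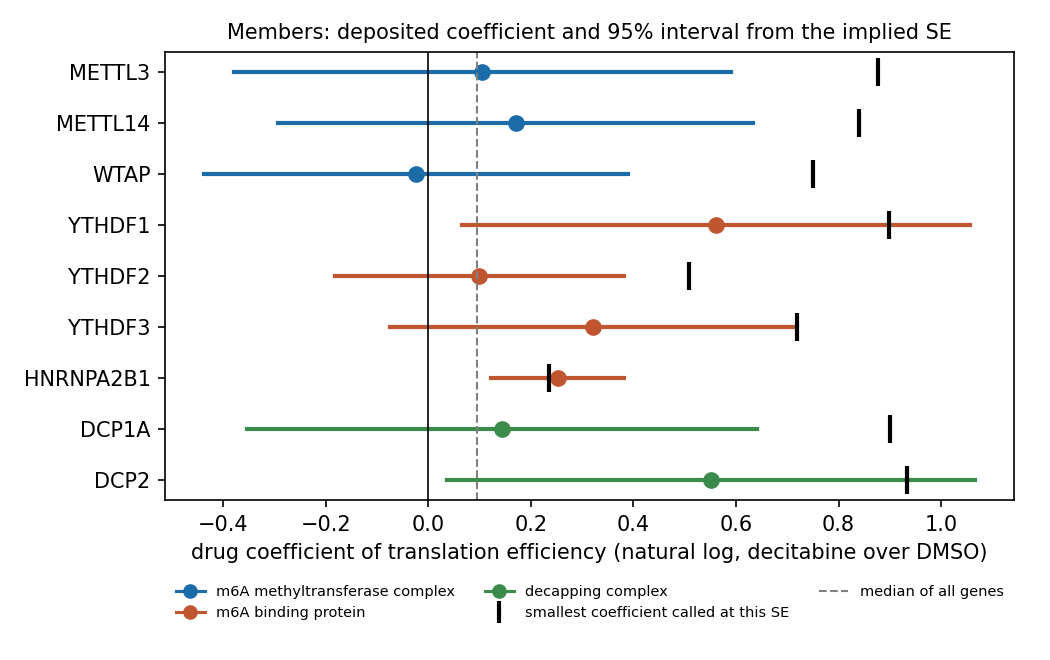
Drug coefficient of translation efficiency on a natural log scale (x axis) for the 9 genes (y axis), as points with 95% intervals from the implied SE; black ticks mark the smallest coefficient that would have been called at each gene's SE, and the dashed line is the median of all genes, 0.09. HNRNPA2B1 is the 1 gene whose point lies beyond its tick, 6 of the 9 intervals hold 0, and 8 of the 9 hold the median of all genes.

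Among the writers, none of the 3 measured members of the rule was called, against 0.808% of all genes. METTL3, the catalytic subunit (chromosome 14, 21498138 to 21511340 on GRCh38.p14, whole-gene span), had a coefficient of 0.11 ± 0.25 (implied SE) and an adjusted p of 0.932 in the authors' deposited table. METTL14 (chromosome 4, 118685392 to 118715430) had 0.17 ± 0.24 and an adjusted p of 0.866 in the authors' deposited table. WTAP (chromosome 6, 159726693 to 159756319) had -0.02 ± 0.21 and an adjusted p of 0.985 in the authors' deposited table, the lowest of the 9 coefficients. As ratios of decitabine to DMSO the intervals were 0.684 to 1.80 for METTL3, 0.746 to 1.89 for METTL14 and 0.645 to 1.48 for WTAP. METTL3 lay almost at the centre of the table, at percentile 51.7 of all coefficients, METTL14 at 62.7 and WTAP at 31.8. The coefficient of METTL14 exceeded that of METTL3, with which it forms a heterodimer, by 0.07, with an interval of -0.61 to 0.74 when the errors are taken as independent. The data therefore left room for a difference in either direction between the subunits.

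The 3 cytoplasmic YTH readers had coefficients from 0.10 to 0.56, and none was called, against 0.808% of all genes. YTHDF1 (chromosome 20, 63195429 to 63216131) had a coefficient of 0.56 ± 0.25 (implied SE), an unadjusted p of 0.0267 and an adjusted p of 0.395 in the authors' deposited table. This was the highest coefficient of the 9, at rank 345 of 6309, and corresponds to a ratio of 1.75 with an interval of 1.07 to 2.88; read as a log2 value it would be 1.48. YTHDF3 had 0.32 ± 0.20 and an adjusted p of 0.601 in the authors' deposited table. YTHDF2 (chromosome 1, 28736624 to 28769775) had 0.10 ± 0.14 and an adjusted p of 0.875 in the authors' deposited table, next to the median of all genes. YTHDF2 was the most precise of the YTH readers, and its interval of 0.834 to 1.46 as a ratio was the narrowest among the 8 members that were not called. YTHDF1 exceeded YTHDF2 by 0.46, with an interval of -0.11 to 1.03, and YTHDF3 exceeded it by 0.22, with an interval of -0.26 to 0.71. None of these differences had an interval that left out 0, so an order among the 3 readers was not resolved.

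HNRNPA2B1, a nuclear hnRNP that binds RNA and has been described as an m6A reader, was the most precisely measured member. Its coefficient was 0.25 ± 0.07 (implied SE), with a p of 0.000147 and an adjusted p of 0.0276, in the authors' deposited table. The ratio was 1.29, with an interval of 1.13 to 1.47, and 1.19 if the coefficient were a log2 value. The gene spans 26189927 to 26200746 on chromosome 7. Its coefficient was at percentile 73.7 of all genes, below those of YTHDF1, DCP2 and YTHDF3, whereas its implied SE was at percentile 0.634, so that it was called with a smaller coefficient than 3 members that were not. After subtraction of the all-gene median its coefficient was 0.16, with an adjusted p of 0.466, so the call depended on where zero was placed. With genes ordered by implied SE, 39 stood before HNRNPA2B1. Among these and the next 39, with SE from 0.0227 to 0.0760, 20 of 78 were called, 15 of them higher and 5 lower, 47 had an unadjusted p below 0.05, and 8 had a larger coefficient than HNRNPA2B1. The share called in this range of SE was 25.6%, against 0.808% of all genes.

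HNRNPA2B1 was set beside the other 17 hnRNP genes measured, a group picked by the start of the symbol after values had been seen. Of the 18 in all, 2 rose, none fell and 16 were not called, against 0.808% of all genes called in either direction and 0.634% higher; the median coefficient was 0.13. An unadjusted p below 0.05 was found for 6 of the 18, all higher, against 8.35% of all genes in that direction. These shares are not of like precision, because the median implied SE of the 18 was 0.11, against 0.25 for all genes. Calls gathered at small SE. HNRNPU, a nuclear scaffold-associated hnRNP, was the other gene called, with 0.27 (adjusted p = 0.00158) per the authors' deposited table. HNRNPH3, HNRNPAB, HNRNPUL1 and HNRNPC had larger coefficients than HNRNPA2B1 without being called. Their values were 0.30, 0.30, 0.29 and 0.26 (adjusted p = 0.454, 0.161, 0.171 and 0.191, in that order) per the authors' deposited table. Coefficients below 0 were found for 6 of the 18, the lowest for HNRNPH2 with -0.23 (adjusted p = 0.699) per the authors' deposited table. HNRNPA1, a close paralogue of HNRNPA2B1, had -0.09 (adjusted p = 0.88) and HNRNPA3 had -0.04 (adjusted p = 0.928) per the authors' deposited table. The sources used here do not say how reads shared by such paralogues or by processed pseudogenes were assigned. After centring on the median, 3 of the 18 had an unadjusted p below 0.05, all higher, against 3.69% of all genes on that side. None of the 18 was then called, against 0.586% of all genes.

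Of the decapping complex, DCP2, the catalytic subunit (chromosome 5, 112976798 to 113022195), had a coefficient of 0.55 ± 0.26 (implied SE), an unadjusted p of 0.0360 and an adjusted p of 0.429 in the authors' deposited table. The ratio was 1.74, with an interval of 1.04 to 2.91, and the coefficient ranked 359 of 6309, close to that of YTHDF1. DCP1A, its cofactor (chromosome 3, 53283429 to 53347543), had 0.14 ± 0.25 and an adjusted p of 0.903 in the authors' deposited table, with a ratio interval of 0.703 to 1.90. DCP2 exceeded DCP1A by 0.41, with an interval of -0.31 to 1.12, so the subunits were not distinguished. After centring, the unadjusted p was 0.0827 for DCP2 and 0.0657 for YTHDF1.

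Precision set which sizes of change could be called. At its own SE, HNRNPA2B1 needed a coefficient of 0.24, a ratio of 1.27, whereas YTHDF2 needed 0.51, a ratio of 1.66. The other 7 members needed between 0.72 (YTHDF3, a ratio of 2.05) and 0.93 (DCP2, a ratio of 2.54). These 7 have an implied SE at or above that of YTHDF3, as do 4268 genes in all; 2 of those were called, both higher, and the smaller of the pair had a coefficient of 0.96 in the authors' deposited table. For DCP2, none of the 200 genes nearest in the order of SE (100 on each side) was called, while 16 had an unadjusted p below 0.05 and 10 had a larger coefficient. For YTHDF1 the same counts were 0 called, 17 below 0.05 and 8 with a larger coefficient. For METTL3 they were 0, 14 and 102, which places METTL3 in the middle of genes of its own precision.

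**Figure D2:**
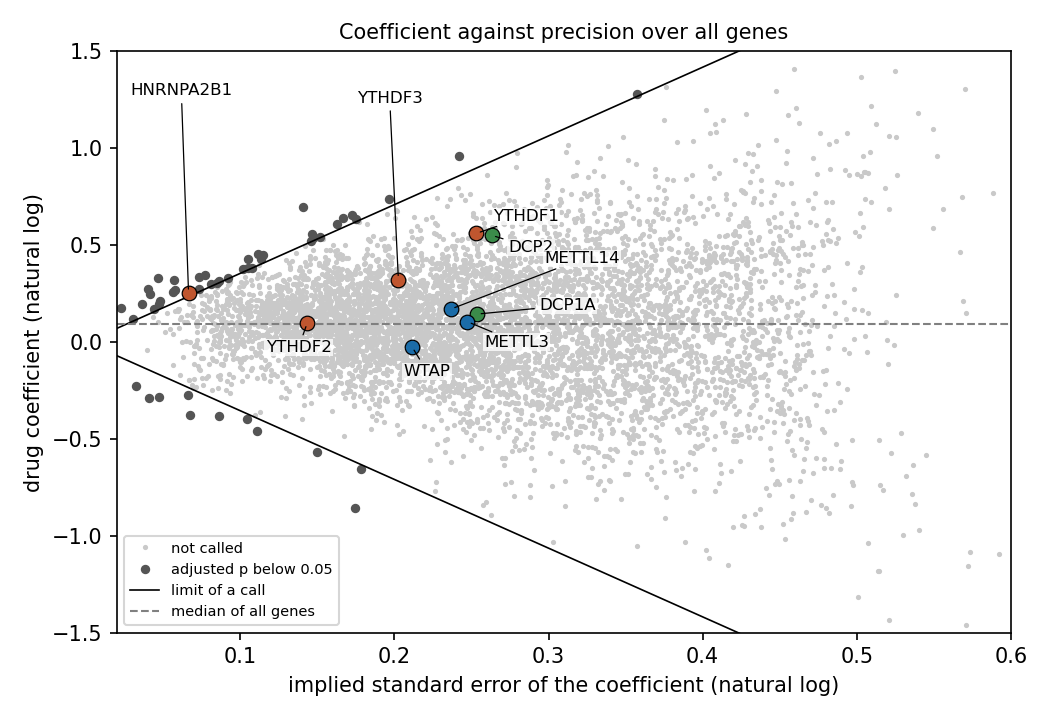
Drug coefficient (y axis, natural log) against its implied SE (x axis, natural log) for all genes, with called genes dark, members coloured as writers (blue), m6A binding proteins (orange) and decapping proteins (green), and black lines at the limit of a call; 20 genes, none of them called, lie outside the axes. Called genes gather at small SE, where HNRNPA2B1 sits just past the line, while YTHDF1 and DCP2 have higher coefficients at SE of 0.25 and 0.26 and lie inside it.

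The wider m6A and decapping route was described with lists written from general knowledge, 73 genes in all, of which 49 were measured. Of the 40 measured genes that are not members, none was called, where 0.808% of all genes were, and 2 had an unadjusted p below 0.05, both higher (HNRNPC and CNOT1), where 8.35% of all genes did in that direction. At list sizes this small a count of 0 calls is near the share over all genes and shows nothing particular to a list. The median coefficient of the 40 was 0.09, equal to that of all genes at this rounding.

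All 8 listed subunits of the m6A methyltransferase complex were measured and none was called, against 0.808% of all genes. Their coefficients ran from -0.21 to 0.17 with a median of 0.09, 4 above and 4 below the median of all genes. CBLL1, an E3 ligase-like subunit, had -0.21 (adjusted p = 0.836) and RBM15, an RNA-binding subunit, had 0.16 (adjusted p = 0.845) per the authors' deposited table. Of 5 other adenosine methyltransferase genes 3 were measured, and PCIF1, which methylates the cap-adjacent adenosine, had the highest coefficient, 0.53 ± 0.30 (implied SE, adjusted p = 0.55), per the authors' deposited table. ZCCHC4, which methylates 28S rRNA, had 0.40 (adjusted p = 0.775) and TRMT112, a methyltransferase cofactor, had 0.05 (adjusted p = 0.957) per the authors' deposited table. Neither of the listed m6A erasers was analysed here.

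Among 4 measured YTH genes the median coefficient was 0.21 and none was called, against 0.808% of all genes. The 9 measured genes of a list named for m6A-binding proteins outside the YTH family had a median of 0.06. This list is broad, and not every protein on it need bind the modified base itself. HNRNPA2B1 was the 1 call among these 9, against 0.808% of all genes in either direction and 0.634% higher. HNRNPC, which binds sites exposed by m6A, had 0.26 ± 0.09 (implied SE, unadjusted p = 0.00528, adjusted p = 0.191) per the authors' deposited table, a coefficient close to that of HNRNPA2B1 with a larger error. FMR1, the fragile X RNA-binding protein, had -0.54 ± 0.32 (adjusted p = 0.58) per the authors' deposited table, the lowest coefficient of all the listed genes. After centring, 2 of the 9, FMR1 among them, had an unadjusted p below 0.05 on the lower side, against 4.25% of all genes. On the higher side there was 1, HNRNPA2B1, against 3.69% of all genes. None of the 9 was called after centring, against 0.586% of all genes. The shares for these 9 and for all genes are not of like precision. The median implied SE of the 9 was 0.15, against 0.25 for all genes. A list named for supply of the methyl donor S-adenosylmethionine had 4 of 5 genes measured, with a median of 0.08. The list is broad, and not every gene on it makes that donor. MAT2A, which makes S-adenosylmethionine, had 0.18 (adjusted p = 0.618) and AHCYL1 had 0.32 (adjusted p = 0.638) per the authors' deposited table. MAT2B, the regulatory subunit of MAT2A, had -0.07 (adjusted p = 0.945) per the authors' deposited table.

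The decapping enzyme and its activators had 11 of 17 listed genes measured and none called, against 0.808% of all genes, with coefficients from -0.28 to 0.55 and a median of 0.15. After DCP2, the smallest p-values belonged to LSM14B, a P-body protein, with 0.42 ± 0.25 (implied SE, adjusted p = 0.572), and to LSM6, a subunit of the LSM ring that binds the 3′ end of deadenylated mRNA, with 0.52 ± 0.33 (adjusted p = 0.597), per the authors' deposited table. XRN1, the exonuclease that degrades decapped mRNA from the 5′ end, had 0.33 ± 0.19 (adjusted p = 0.556), while its nuclear relative XRN2 had -0.09 (adjusted p = 0.88) per the authors' deposited table. DCPS, the scavenger of cap remnants, had -0.03 (adjusted p = 0.988) per the authors' deposited table. Proteins through which YTHDF2 is known to promote decay had 7 of 13 listed genes measured and a median of 0.16. None of the 7 was called, against 0.808% of all genes. CNOT1, the scaffold of the CCR4-NOT deadenylase that YTHDF2 recruits, had 0.16 ± 0.08 (unadjusted p = 0.0405, adjusted p = 0.454) per the authors' deposited table. UPF1, the helicase of nonsense-mediated decay, had 0.18 (adjusted p = 0.632) and RPP40, an RNase P subunit, had 0.32 (adjusted p = 0.817) per the authors' deposited table.

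**Figure D3:**
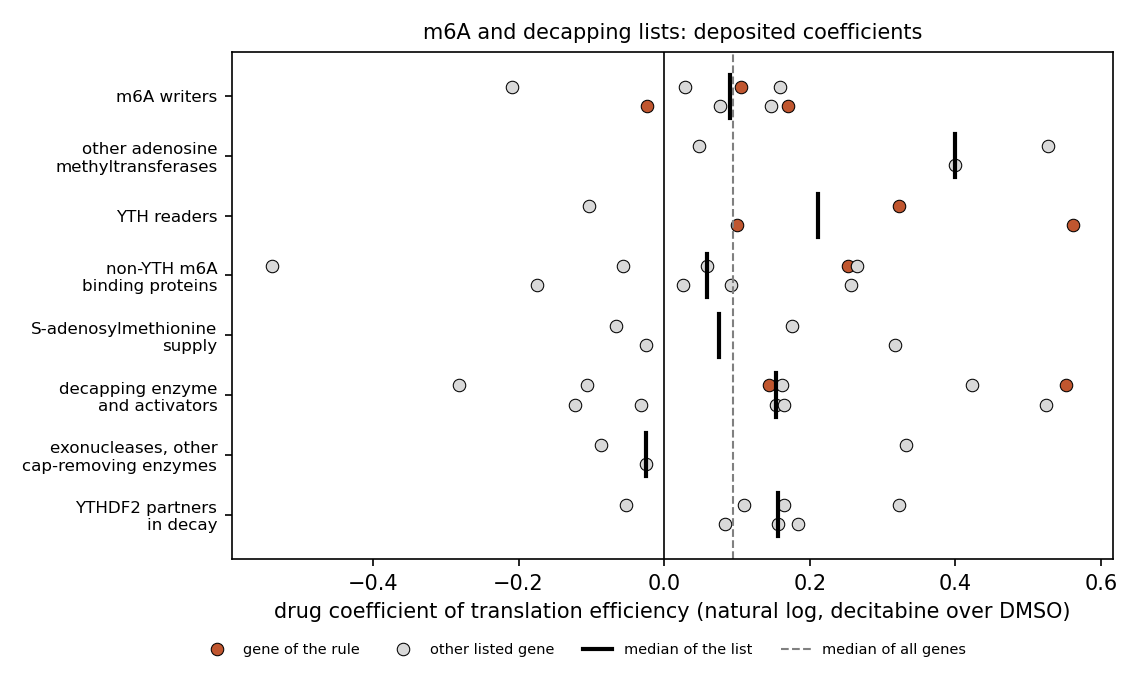
Drug coefficient of translation efficiency (x axis, natural log) of each measured gene in 8 lists of the m6A and decapping route (y axis), with genes of the rule in orange, other listed genes in grey and a black bar at each list's median; the vertical offset within a list only separates points. The median of the m6A writers, 0.09, lies on the dashed median of all genes, and the orange points at 0.55 and 0.56 are DCP2 and YTHDF1.

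Transcript starts were also compared, because mRNAs that open with a C and a run of pyrimidines (the terminal oligopyrimidine, or TOP, motif) are a known class under translational control. RefSeq (GRCh38.p14) start windows were used for 8 of the 9 measured members, all but YTHDF3. A start was counted when a C was followed by 4 bases that were each C or T, on the strand of the gene. This held for 2 of the 10 windows of these members, 1 of YTHDF2 and 1 of WTAP, for 5.51% of the 7329 windows of measured genes, and for 4.07% of all 35116 windows. The windows below, of 10 bases on each side of the start, show these starts beside those of the called member and of DCP2; capitals mark the first 5 transcribed bases.
YTHDF2, chr1:28736614-28736633, plus strand: cagagctagtCTTTCcaggt
WTAP, chr6:159727496-159727515, plus strand: gcctggtttcCTCCCtcagc
HNRNPA2B1, chr7:26200737-26200756, minus strand: ctctagcggcAGTAGcagca
DCP2, chr5:112976788-112976807, plus strand: ccttccccttCTCGTctccg
YTHDF2 and WTAP each have another annotated start that did not match, and which start HL-60 cells use was not analysed here. The genes with a matching start had coefficients of 0.10 ± 0.14 (YTHDF2) and -0.02 ± 0.21 (WTAP, implied SE) per the authors' deposited table. Neither was called. These were the lowest values of the 9, but METTL3, without a matching start, was close to YTHDF2 at 0.11 ± 0.25. Both intervals hold the median of all genes, and a link of start to coefficient was not tested.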

How the data were processed

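Ribosome profiling and total RNA libraries of HL-60 cells were the source of the data; the submitters' processing notes name Bowtie2, UMI-tools 1.1.1, SAMtools 1.11 and the build hg38. The sources used here do not give the roles of these tools, the model program, its count filter, the library scaling or the use of replicates. The deposited table holds 1 transcript per gene with a drug coefficient, taken as a natural log, and a p-value, an adjusted p-value and a q-value, per the file headers. Benjamini-Hochberg adjustment over all genes gives the deposited adjusted p-values. A planned test of counts per library was not run, since the values are a finished comparison.

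Implied standard errors, 95% intervals, centring and counts were computed in Python 3.11.15 (scipy 1.17.1, pandas 2.3.3). The implied SE, the adjustment and the centring were run on simulated data with normal errors. That checks the arithmetic only, because the simulated p-values were made by the same formula, and cannot show how the deposited p-values arose. The members and lists were chosen with earlier results of these data known. Besides the members, the genes named are those with a p-value below 0.05 and the 3 with the smallest p-values in each list; hnRNP genes were added after values were seen. No protein sequences were used here, so the planned protein comparison was left out. Alternatives were other thresholds and adjustments, 2 ways of centring and a filter on imprecise genes.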

Additional observations from a re-analysis of the deposited data

How the results depend on the processing

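The 51 calls over all genes (40 higher, 11 lower) became 19 at an adjusted p below 0.01, 86 below 0.1 and 18 with the Benjamini-Yekutieli adjustment, which follows from the thresholds. With coefficients centred on the median there were 5 calls on the higher side and 32 on the lower, and with the precision-weighted mean as zero 6 and 31. The 1 call among the members, HNRNPA2B1, could not be lost below 0.1, a looser threshold. Nor could it be lost with the deposited q-value, which was 0.83 times the adjusted p-value for every gene. It also held without the 25% of genes with the largest implied SE (adjusted p = 0.0207 from the authors' p-values). That filter leaves fewer genes to adjust over and keeps the precise ones, so it was no hard test of the call. It became 0 calls below 0.01, with Benjamini-Yekutieli and after both centrings, where, from the authors' coefficients and implied SE, its coefficient was 0.16 (adjusted p = 0.466) on the median and 0.16 (adjusted p = 0.443) on the weighted mean; by the unadjusted deposited p-value 3 members were below 0.05. The other 8 members kept their sign and stayed uncalled under both centrings and the filter. Centring on the median lowered every list median by 0.09 by construction, to 0.0753 for the members, -0.00405 for the m6A writers, 0.30 for the other adenosine methyltransferases, 0.12 for the YTH readers, -0.0358 for other m6A-binding proteins, -0.0196 for the methyl donor genes, 0.0587 for decapping, -0.12 for the exonuclease list and 0.0613 for the YTHDF2 partners. No paired analysis was possible because the table has no values per library; leaving out replicates was not run for the same reason. At the implied SE of 7 members a call needed a coefficient of 0.72 or more.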
